A study of Mus musculus with 3 samples.

Results

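The genes described here encode the proteasome and its immune form, and were taken as every listed gene whose symbol begins with Psm, then a letter from a to g, then a digit. This gave 50 of the 14811 genes in the table. Of these, 48 are proteasome genes: 7 α and 7 constitutive β subunits of the 20S core, 3 immune β subunits, the alternative α subunit Psma8, 9 subunits of the base and 8 of the lid of the 19S regulatory particle, 7 assembly chaperones, 5 activators and the inhibitor Psmf1. The symbol rule also took in Psmc3ip, which is not a subunit (it encodes a meiotic recombination factor), and Psmb6-ps2, annotated as a processed pseudogene. The cells were macrophages sorted by flow cytometry from the kidneys of 3 C57BL/6J mice, named as separate animals in the labels, with 1 RNA-seq library per mouse. All mice had received phosphate-buffered saline (PBS) intravenously, kidneys were collected after 1 h and digested for 30 min, and cDNA was amplified with SMART-seq v4, a full-length protocol for very small amounts of RNA. There is a single group, and the labels name no gene deletion or transgene. The age of the mice is not given in the sources used here, nor are the antibodies of the sort. All comparisons below are therefore between genes within a library or between mice of this group. With 1 library per mouse, a difference between animals cannot be told apart from a difference between library preparations.

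The proteasome degrades proteins tagged with ubiquitin. Its 20S core is a barrel of α rings that gate the entrance and β rings that hold the proteolytic sites, and the 19S particle binds, unfolds and deubiquitinates the substrate. The sites β5, β1 and β2 cleave with different preferences, and in many immune cells and after interferon-γ they are occupied by the immune subunits β5i, β1i and β2i, which together with the activator PA28 shape the peptides available to MHC class I molecules.

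The libraries held 50646558 to 56718534 reads over the listed genes, and the 50 genes took 0.688%, 0.607% and 0.693% of them in mice 1, 2 and 3 (0.663% ± 0.0484, SD, n = 3). Of the 12 macrophage markers, 11 were at 1000 or more normalised reads in every mouse; the exception was Itgam, at 1021, 446 and 5.64. The 8 tubule markers summed to 39806, 191507 and 15556 normalised reads in mice 1, 2 and 3, mostly from the proximal tubule gene Kap. By this sum RNA of kidney tubules was highest in the library of mouse 2, although the tubule marker Umod was highest in mouse 3 (40.3, 598 and 998). The 5 endothelial markers summed to 545, 135 and 1391 normalised reads in mice 1, 2 and 3. This sum was highest in mouse 3 and came mostly from Kdr (453, 7.77 and 1345). The other endothelial markers were not highest there. Emcn (71.8, 99.3 and 38.1) and Cdh5 were highest in mouse 2, and Pecam1 and Ehd3 in mouse 1. The B cell gene Cd79b, the 1 of 4 B cell markers in the table, was at 227, 3940 and 6359. Of 8 T and NK cell markers only 3 were in the table, the T cell genes Cd3e, Cd3d and Cd4. They summed to at most 113 normalised reads in a mouse. The neutrophil marker S100a9, the 1 of 5 in the table, was at 0 in all 3 mice. The dendritic cell gene Clec9a was at 3421, 1330 and 1463 normalised reads and Xcr1 at 534, 2.78 and 407. Flt3 and Zbtb46 were at most 4.84 and 16.2 in a mouse, while Ccr7 and Cd209a were at 0 in every mouse. The part of these cells in the values below was not tested. In bulk RNA, fewer cells of a type and less RNA per cell cannot be told apart.

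The promoters of 5 genes are printed to show the sequence around the start of immune (Psmb8, Psmb9), constitutive (Psmb5, Psmb6) and PA28 (Psme1) genes, the groups compared below. The sequences come from RefSeq on the build GRCm38.p6, which had a window for 41 of the 50 genes, and each line runs from 170 bases before the transcription start to 30 bases into the transcript, 5′ to 3′ on the gene's strand. They are Psmb8 (chr17:34198025-34198224, plus strand), Psmb9 (chr17:34187301-34187500, minus strand), Psme1 (chr14:55578324-55578523, plus strand), Psmb5 (chr14:54617966-54618165, minus strand) and Psmb6 (chr11:70525187-70525386, plus strand). Capitals mark a match to 1 of 3 motifs searched on both strands: the interferon-γ activated site (GAS) TTCNNNGAA, the core of the interferon-stimulated response element (ISRE) GAAANNGAAA, and the antioxidant response element TGACNNNGC.
Psmb8: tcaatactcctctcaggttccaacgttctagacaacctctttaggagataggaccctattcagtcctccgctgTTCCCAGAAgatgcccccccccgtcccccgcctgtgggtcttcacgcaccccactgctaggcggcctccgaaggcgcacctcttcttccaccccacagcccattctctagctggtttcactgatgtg
Psmb9: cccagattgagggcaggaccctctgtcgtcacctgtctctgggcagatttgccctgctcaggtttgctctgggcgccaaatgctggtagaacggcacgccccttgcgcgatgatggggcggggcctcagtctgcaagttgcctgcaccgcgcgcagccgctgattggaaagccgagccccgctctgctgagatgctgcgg
Psme1: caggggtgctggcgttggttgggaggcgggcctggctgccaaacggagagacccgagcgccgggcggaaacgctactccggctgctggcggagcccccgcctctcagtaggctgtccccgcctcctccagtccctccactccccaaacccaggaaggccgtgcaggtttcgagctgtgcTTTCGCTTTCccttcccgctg
Psmb5: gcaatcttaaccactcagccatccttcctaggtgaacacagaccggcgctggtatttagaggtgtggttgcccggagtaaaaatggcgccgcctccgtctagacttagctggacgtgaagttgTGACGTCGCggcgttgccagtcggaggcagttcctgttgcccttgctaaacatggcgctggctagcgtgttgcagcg
Psmb6: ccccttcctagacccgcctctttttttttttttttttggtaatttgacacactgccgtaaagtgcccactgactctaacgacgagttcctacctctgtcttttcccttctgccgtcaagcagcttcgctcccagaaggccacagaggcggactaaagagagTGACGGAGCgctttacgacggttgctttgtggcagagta
In Psmb8 the GAS match began 97 bases before the start. In Psme1 the ISRE core match, on the opposite strand, began 9 bases after the start. In Psmb5 and Psmb6 the antioxidant response element began 47 and 9 bases before the start. No match was marked for Psmb9, whose 300-base window overlaps that of Tap1, a subunit of the peptide transporter, by 275 bases on the opposite strand, with the starts 226 bases apart. Over the full 300-base windows, the GAS letters were in 3 of the 41 genes (7.32%, against 9.55% of 27025 genes), the ISRE core in 5 (12.2%, against 3.99%) and the antioxidant response element in 6 (14.6%, against 13.99%). These matches describe letters and were not compared with any binding data.

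At each of the 3 catalytic sites the immune gene was compared with its constitutive counterpart. Levels are given as normalised reads per kb: the deposited value without its added 1, divided by the length of the gene's exons in kb. At the β5 site, Psmb8, which encodes β5i, was at 6455, 3861 and 7568 normalised reads per kb in mice 1, 2 and 3. Its constitutive counterpart Psmb5, which encodes β5, was at 16.1, 2206 and 776. Psmb8 was the higher gene in all 3 mice, and Psmb5 was far lower in mouse 1, where it had 18 reads, than in the other two. The immune share of the β5 site, Psmb8 over the sum of both genes per kb, was 99.7%, 63.6% and 90.7% (84.7% ± 18.8, SD, n = 3).

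At the β1 site, Psmb9, which encodes β1i, was at 2699, 2395 and 1990 normalised reads per kb, and Psmb6, which encodes β1, at 4663, 4240 and 2978. The immune gene was the lower one in each mouse, and both were lowest in mouse 3. The immune share was 36.7%, 36.1% and 40.0% (37.6% ± 2.14, SD, n = 3). At the β2 site, Psmb10, which encodes β2i, was at 3213, 2341 and 5684 normalised reads per kb, and Psmb7, which encodes β2, at 1568, 1134 and 1854. Here the immune gene was the higher one in each mouse, and both were highest in mouse 3. The immune share was 67.2%, 67.4% and 75.4% (70.0% ± 4.68, SD, n = 3). Summed over the 3 sites, immune genes made up 66.4%, 53.2% and 73.1% of the level per kb (64.2% ± 10.2, SD, n = 3), lowest in mouse 2. The β5 share was also lowest there, whereas the β1 and β2 shares of mouse 2 were close to those of mouse 1. Mouse 2 had the highest sum of tubule markers, and the part of tubule RNA in these shares was not tested. The shares depend on gene length. Without division by length the β5 share was 94.7% ± 6.95 (SD, n = 3), and 86.8% in mouse 2. The shares at β1 and β2 were then 54.1% ± 2.25 and 53.9% ± 5.66 (SD, n = 3), so their difference rests on the division.

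**Figure D1:**
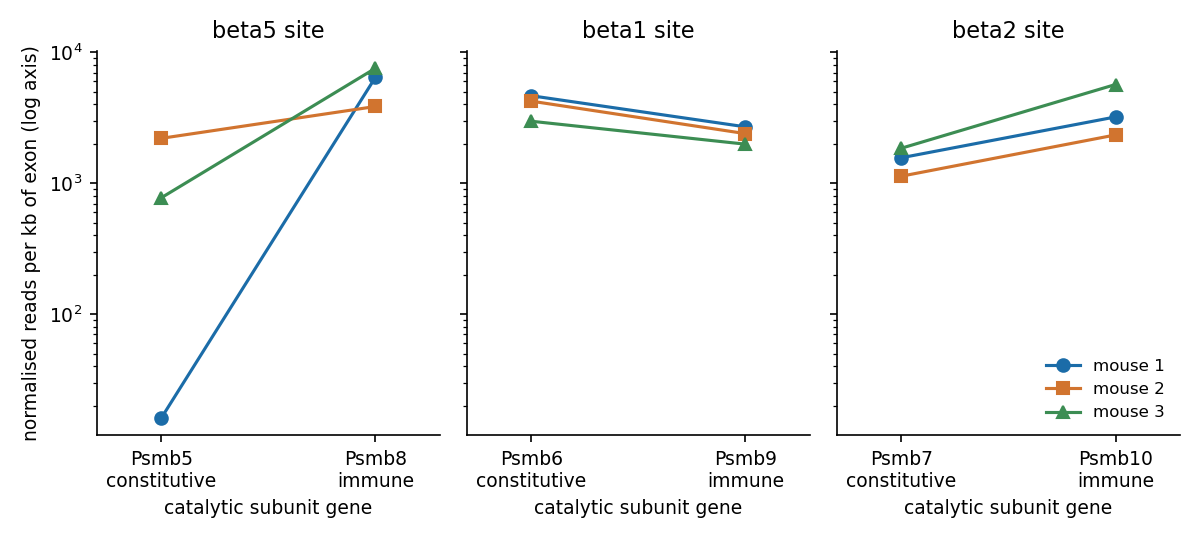
Level of each catalytic subunit gene in 3 mice, in normalised reads per kb of exon on a log axis; a line joins the constitutive and the immune gene of 1 site within 1 mouse. At β5 and β2 the immune gene is higher in every mouse, at β1 it is lower in every mouse, and the spread is widest for Psmb5, from 16.1 to 2206.

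The differences within each site were tested with limma on log2(normalised reads per kb + 1), fitted on all genes above 0 in any library, with Benjamini-Hochberg adjustment over all of them; an adjusted p under 0.05 is called. With 3 mice an exact sign-flip test of 1 gene cannot go below p = 0.25, so the p-values rest on the spread that limma shares across genes. Psmb10 was called higher than Psmb7, by 1.23 ± 0.33 on the log2 scale (SE; 1.03, 1.05 and 1.62 by mouse; limma adjusted p = 0.00882), or 2.35-fold. Of all 13791 genes tested against Psmb7, 4.08% were called higher. This call was lost without division by length (0.23, limma adjusted p = 0.589) and where limma's variance did not follow the level (limma adjusted p = 0.138); over all 11 alternatives the adjusted p was 0.00190 to 0.589.

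Psmb8 and Psmb5 differed by 4.22 ± 2.98 on the log2 scale (SE; 8.56, 0.81 and 3.28 by mouse; 95% interval -1.63 to 10.06), which was not called (limma adjusted p = 0.327). Against Psmb5, whose level differed so widely between mice, 0.0% of 13791 genes were called higher and 0.0% lower, with 70 and 4412 genes at an unadjusted p under 0.05. The level of Psmb5 is also uncertain because 54.1% of the 50-base stretches of its transcripts are found in other genes, 46.8% in the copy Gm3375, whereas at most 1.05% of those of the other 5 catalytic genes are shared. Psmb9 lay below Psmb6 by -0.73 ± 0.49 (SE; -0.79, -0.82 and -0.58 by mouse; 95% interval -1.69 to 0.23), which was not called (limma adjusted p = 0.138), while 94.4% of all genes were called lower than Psmb6. For this pair the scale decided the direction: without division by length the difference was 0.24 (limma adjusted p = 0.623), and per kb of the longest transcript it was -1.34 and called (limma adjusted p = 0.00806). In a limma fit without moderation, where each gene has its own spread alone, a choice made after seeing the data, the difference of -0.73 was also called (limma adjusted p = 0.0387).

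The 5 activator genes had mean levels from 92.8 (Psme4) to 8525 (Psme2b) normalised reads per kb. Psme1 and Psme2 encode PA28α and PA28β, the subunits of the interferon-induced cap of the 20S core. Psme1 was at 6380, 4435 and 5113 normalised reads per kb, and Psme2 at 2898, 2679 and 3344. Psme2b, a copy of Psme2, was at 8820, 8385 and 8369, the smallest spread of all 50 genes (SD of log2 normalised reads 0.04). Per kb, Psme1 lay above Psme2 and below Psme2b in every mouse. The order of Psme1 and Psme2b rests on the division by length. Without it Psme1 was at 14092, 9797 and 11294 normalised reads, above Psme2b (7382, 7018 and 7005) in every mouse. Psme2b is uncertain, because 68.6% of its 50-base stretches are shared with Psme2 and 28.3% of those of Psme2 with Psme2b, so the authors' counting could have split or moved reads between them.

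Psme3, which encodes PA28γ, the nuclear member of the family, was at 548, 41.8 and 975 normalised reads per kb, lowest in mouse 2. Psme4, which encodes the large nuclear activator PA200, was at 7.31, 241 and 30.3, highest in mouse 2. In mouse 2 the order of Psme3 and Psme4 was thus the opposite of that in the other mice. Mouse 2 also had the highest sum of tubule markers, and a relation of this order to tubule RNA was not tested. Psme1 exceeded Psme3 by 4.21 ± 1.65 on the log2 scale (SE; 3.54, 6.70 and 2.39 by mouse), just short of a call (limma adjusted p = 0.0557). Without mouse 2 the difference was 2.96 and called (limma adjusted p = 3.47e-05), as it was with no filter on low genes (limma adjusted p = 0.0443), and over all 11 alternatives the adjusted p ran up to 0.847. Psme2 exceeded Psme3 by 3.38 ± 1.64 (SE; 2.40, 5.97 and 1.78 by mouse; limma adjusted p = 0.135), and by 2.09 without mouse 2 (limma adjusted p = 0.0131). Psme2b was called higher than Psme3 (4.91 ± 1.67, SE; 4.0, 7.61 and 3.10 by mouse; limma adjusted p = 0.0245), beside 1.88% of all 13791 genes. That call was lost in 7 of 11 alternatives, among them those without mouse 1 (5.36, limma adjusted p = 0.847), without mouse 3 (5.81, limma adjusted p = 0.521) and without division by length (3.10, limma adjusted p = 0.176), and the adjusted p ran from 9.01e-08 to 0.847. Psme4 and Psme3 differed by -2.84 ± 2.61 (SE), with mouse 2 in the opposite direction (-6.05, 2.50 and -4.96 by mouse; limma adjusted p = 0.429).

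Psmf1, which encodes the proteasome inhibitor PI31, was at 51.0, 42.9 and 0.219 normalised reads per kb. The level in mouse 3 came from 2 reads, at or below the floor of 3 reads, so Psmf1 was detected clearly in mice 1 and 2 only. Psma8, the α subunit that replaces Psma7 in germ cells, was at 0.970, 0.223 and 146 normalised reads per kb, from 3, 1 and 518 reads, and was therefore clearly detected in mouse 3 only.

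In the constitutive core every α gene was abundant. Psma1 had the highest mean per kb of the 50 genes, at 15809, 8089 and 7614 normalised reads per kb. It led in mouse 1, whereas Psmb2 was higher in mouse 2 and Psma6 in mouse 3. Psma3 had the lowest mean per kb of the 7 α genes, at 1723, 1494 and 1389, and was among the 3 genes with the smallest spread (SD of log2 normalised reads 0.16). Without division by length the mean of Psma5 was lower (2429 against 5978 normalised reads). All 7 α genes reached 1000 normalised reads in every mouse. Among the constitutive β genes, Psmb2, which encodes the noncatalytic subunit β4, was highest, at 14245, 8512 and 6932, and Psmb5 was lowest. Psmb4, which encodes β7, was at 2058, 2338 and 28.2, with 78 reads in mouse 3. The core thus had a single low value for Psmb5 in mouse 1 and for Psmb4 in mouse 3, although the other core genes were abundant in the same libraries.

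**Figure D2:**
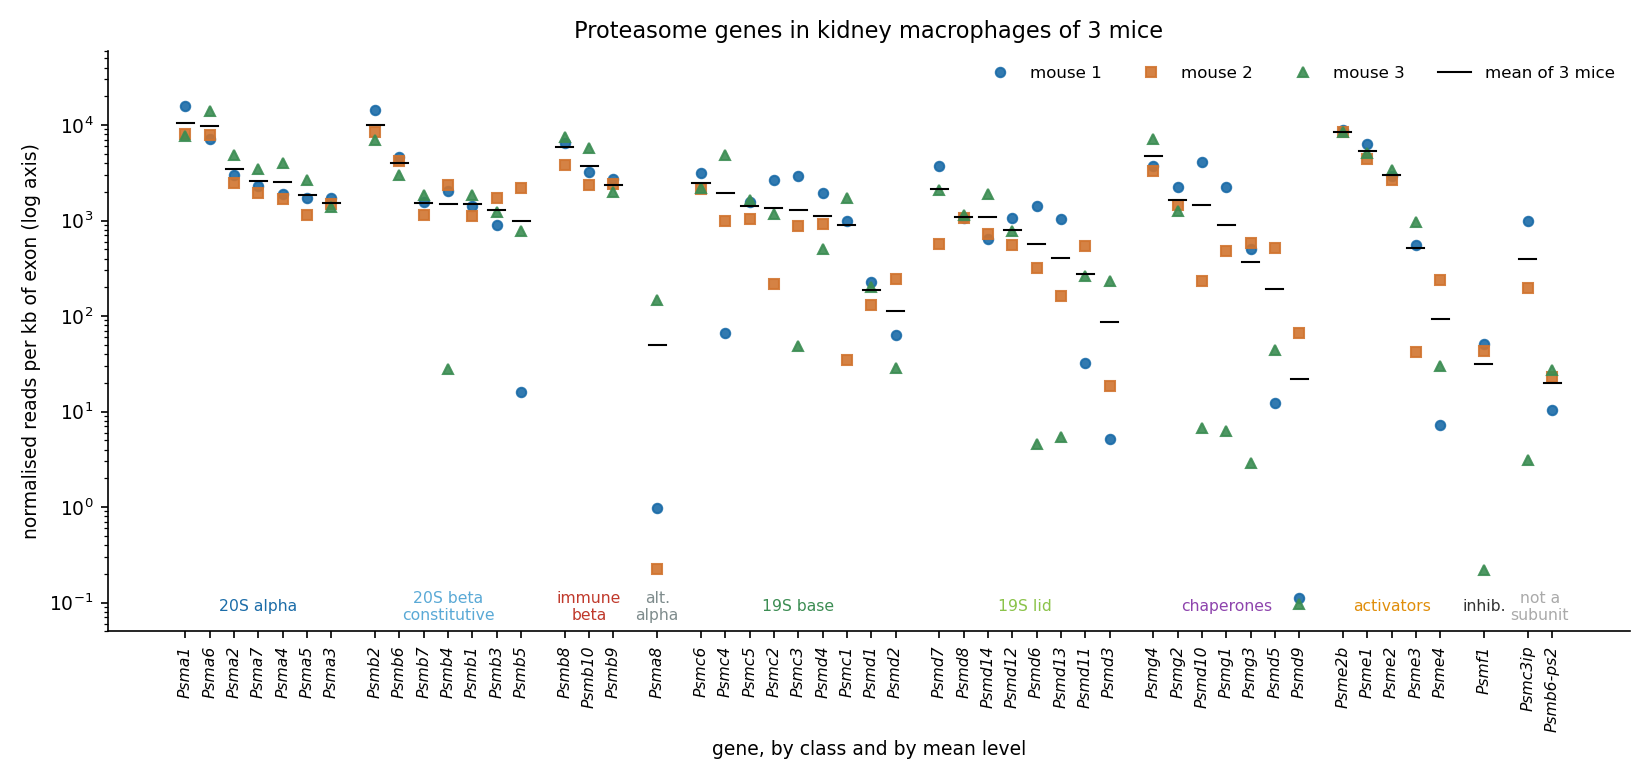
Level of each of the 50 genes in normalised reads per kb of exon, on a log axis, by class and mean level; symbols are the 3 mice and bars their mean. The values of the α and immune β genes and of Psme1, Psme2 and Psme2b lie close together across mice, whereas 19S and chaperone genes such as Psmc4, Psmd6 and Psmd10 spread over factors of 8 or more.

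Mean levels of the genes of the 19S regulatory particle ranged from 86.3 to 2494 normalised reads per kb, and those of the constitutive core from 999 to 10504. In the base, which holds the ATPase ring, Psmc6 was highest, at 3145, 2131 and 2207 normalised reads per kb. Psmd2, a scaffold that binds ubiquitin-like domains, was lowest, at 62.9, 245 and 28.6, highest in mouse 2. The ATPase genes Psmc4 and Psmc3 went in opposite directions across mice: Psmc4 was at 66.4, 999 and 4828, and Psmc3 at 2911, 869 and 48.9. The products of all 6 ATPase genes form a single ring. Of the 6, 4 had a range of 8-fold or more between mice, beside 59.2% of all genes above 0 in any mouse. Among all genes with a mean of 1000 or more normalised reads the share was 37.2%. The ATPase genes Psmc6 and Psmc5 had a smaller range, and Psmc5 was at 1557, 1049 and 1647 normalised reads per kb.

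In the lid, Psmd7, which encodes the partner of the deubiquitinase, was highest, at 3726, 568 and 2084 normalised reads per kb, lowest in mouse 2. The deubiquitinase gene Psmd14 itself was at 637, 725 and 1895. Psmd3 was lowest, at 5.2, 18.3 and 235, highest in mouse 3. Psmd8 had the second smallest spread of the 50 genes, at 1063, 1055 and 1155 (SD of log2 normalised reads 0.07). Psmd6 and Psmd13 were at 4.53 and 5.43 in mouse 3 and at 1405 and 1046 in mouse 1.

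The median log2 level per kb of the 14 constitutive core genes exceeded that of the 17 genes of the 19S particle by 0.89, 1.90 and 1.86 in mice 1, 2 and 3 (1.55 ± 0.57, SD, n = 3), or 2.92-fold. The core median was the higher one in each mouse. The difference was 0.34, 1.25 and 1.24 for the base and 0.90, 1.92 and 2.64 for the lid. For the 6 ATPase genes alone it was -0.05, 1.15 and 0.74, so in mouse 1 the ATPase genes were level with the core. With means over genes in place of medians, the core exceeded the 19S particle by 2.38.

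Each of the other 36 genes was also tested against the mean log2 level per kb of the 14 core genes in the same library. In this fit 4 genes were called higher, beside 2.71% of all 13778 genes, and 21 lower, beside 89.6% of all genes, so a level below the core was the usual outcome for genes of this table. The median difference was -2.33 over the 36 genes and -6.36 over all genes tested. The 4 higher genes were Psme2b (1.94 ± 0.31 on the log2 scale, SE, limma adjusted p = 9.95e-05), the immune subunit gene Psmb8 (1.37 ± 0.36, limma adjusted p = 0.00506), Psme1 (1.24 ± 0.34, limma adjusted p = 0.00662) and the assembly chaperone gene Psmg4 (1.00 ± 0.38, limma adjusted p = 0.0213). All 4 were above the core in all 3 mice. With a variance that did not follow the level, Psme2b alone was called higher (limma adjusted p = 0.0400), and 10 genes were called lower. In that fit 1.285% of all genes were called higher and 77.4% lower. Without division by length Psmb8 and Psme1 kept their call, whereas Psme2b was at 0.53 (limma adjusted p = 0.265) and Psmg4, which has the shortest exons of the 50 genes, at -0.999 (limma adjusted p = 0.151). Psmg4 was also not called without mouse 3 (0.64, limma adjusted p = 0.284). Per kb of the longest transcript neither Psmg4 (0.38, limma adjusted p = 0.367) nor Psme1 (0.77, limma adjusted p = 0.0544) was called.

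The other immune subunit genes were not called: Psmb10 differed from the core by 0.65 ± 0.40 on the log2 scale (SE, 95% interval -0.20 to 1.51, limma adjusted p = 0.131, higher in 2 of 3 mice), called without mouse 2 (1.02, limma adjusted p = 0.0178), and Psmb9 by 0.07 ± 0.40 (SE, 95% interval -0.79 to 0.94, limma adjusted p = 0.860, higher in 1 of 3). Psme2 differed by 0.41 ± 0.38 (SE, limma adjusted p = 0.307, higher in 3 of 3) and the ATPase gene Psmc6 by 0.14 ± 0.40 (SE, limma adjusted p = 0.739). Of the 9 base genes 4 were called lower than the core and 5 were not called, of the 8 lid genes 6 were called lower, and of the 7 chaperone genes 5. Psme3, Psme4, Psmf1, Psma8, Psmc3ip and Psmb6-ps2 were called lower as well. Psmc3 was called lower although it was above the core in mouse 1 (limma adjusted p = 0.0385, lower in 2 of 3 mice), and was not called without mouse 3 (-0.50, limma adjusted p = 0.461). The chaperone genes Psmg1 and Psmd10 were likewise above the core in 1 of 3 mice, and without mouse 3 they were at -1.13 (limma adjusted p = 0.129) and -1.20 (limma adjusted p = 0.112), not called. Without mouse 2, 11 genes in place of 21 were called lower. Over all 13778 genes the count fell as well, from 12350 to 8525.

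**Figure D3:**
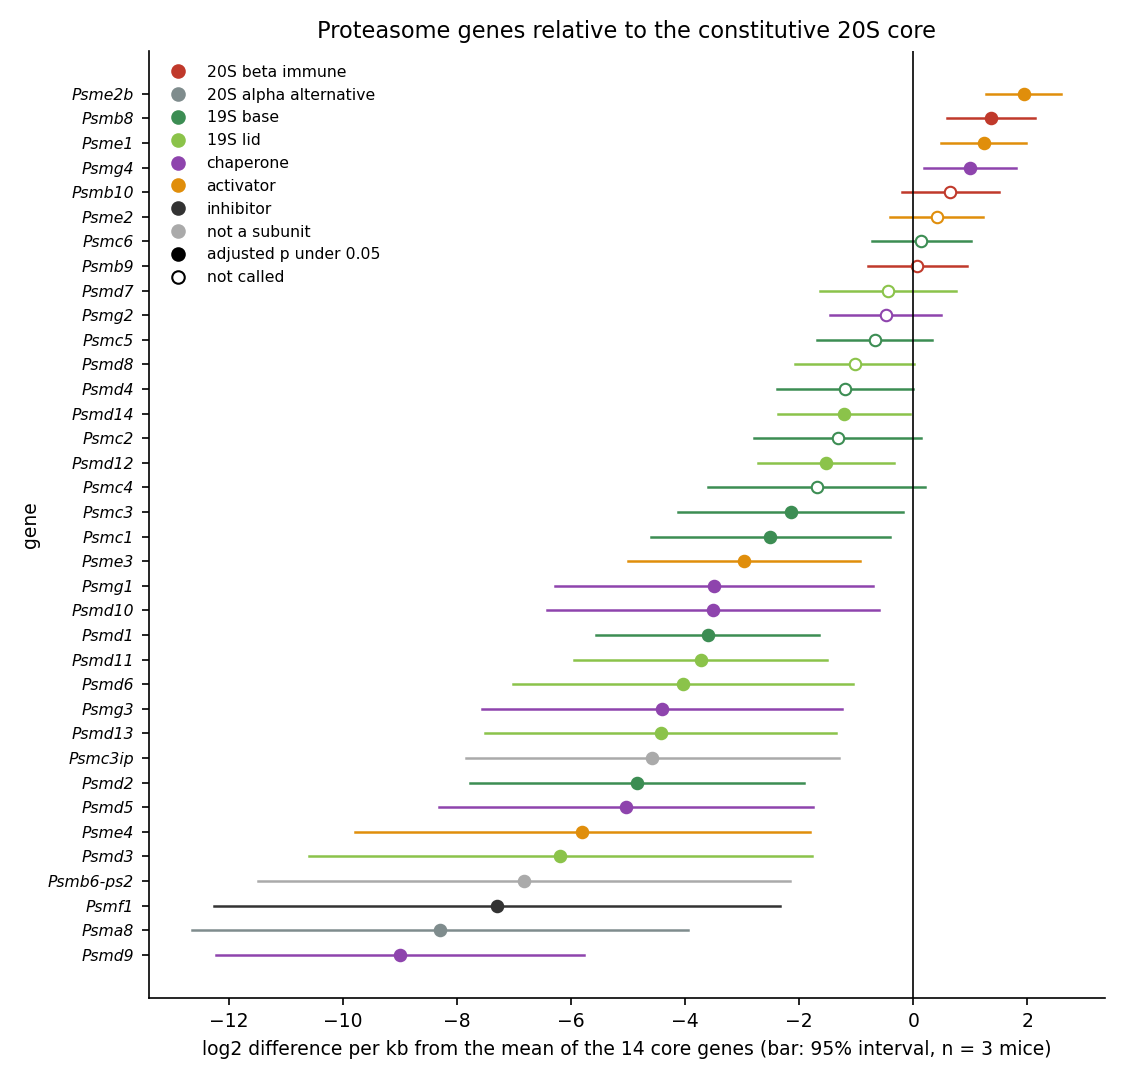
Difference of each of 36 genes from the mean of the 14 constitutive core genes, on the log2 scale per kb of exon, with 95% intervals from limma over 3 mice; filled points have an adjusted p under 0.05. Psme2b, Psmb8, Psme1 and Psmg4 were called above the core, beside 2.71% of all genes. Below it 21 genes were called, down to Psmd9, beside 89.6% of all genes. Open points, on both sides of the core, were not called.

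The assembly chaperones were the most uneven class. Psmg4, which encodes PAC4, a helper in assembly of the α ring, had the highest mean per kb, at 3762, 3265 and 7198 normalised reads per kb. Psmg2, which encodes PAC2, was at 2231, 1442 and 1259, so both were abundant in every mouse. Psmd9, a chaperone of the base, was lowest, at 0.111, 66.2 and 0.0972, from 1, 864 and 1 reads, and was thus clearly detected in mouse 2 only.

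Psmd10, which encodes gankyrin, another chaperone of the base, was at 4110, 234 and 6.72 normalised reads per kb. Psmg1, which encodes PAC1, was at 2222, 476 and 6.29. Both were highest in mouse 1 and lowest in mouse 3, with 14 and 12 reads there. Psmd9, Psmd10 and Psmg1 had the largest spread of the 50 genes, with SDs of log2 normalised reads of 4.68, 4.57 and 4.30. The range between mice was 8-fold or more in 5 of the 7 chaperone genes, beside 59.2% of all genes above 0 in any mouse.

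Over all 50 genes, 21 had a range of 8-fold or more between mice, or 42.0%, beside 59.2% of 13835 genes above 0 in any mouse. The classes were unequal: the count was 0 of 7 α genes, 0 of 3 immune β genes, 2 of 7 constitutive β genes (Psmb4 and Psmb5), 2 of 5 activators (Psme3 and Psme4), 5 of 9 base genes and 4 of 8 lid genes. Of the 21 genes, 11 were lowest in mouse 3, 6 in mouse 1 and 4 in mouse 2. Low values thus occurred in every mouse. With 1 library per mouse, spread between animals and spread between library preparations cannot be told apart. The median SD of log2 normalised reads was 0.53 for the α genes, 0.48 for the constitutive β genes, 0.51 for the immune β genes, 0.26 for the activators, 1.56 for the base, 1.74 for the lid and 4.26 for the chaperones.

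Spread depended on level. Among genes with a mean of 1000 or more normalised reads, the median SD of log2 was 0.59 for the 41 proteasome genes and 1.12 for all 4499 such genes. Across the 48 proteasome genes, SD and mean level per kb had a Spearman rho of -0.59, given as a description because the genes share the same 3 libraries. Among the genes with a mean of 1000 or more, 13 of the 41 had a range of 8-fold or more, beside 37.2% of all 4499. Of the 50 genes, 28 were at 1000 or more normalised reads in every mouse, beside 15.8% of all genes above 0.

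**Figure D4:**
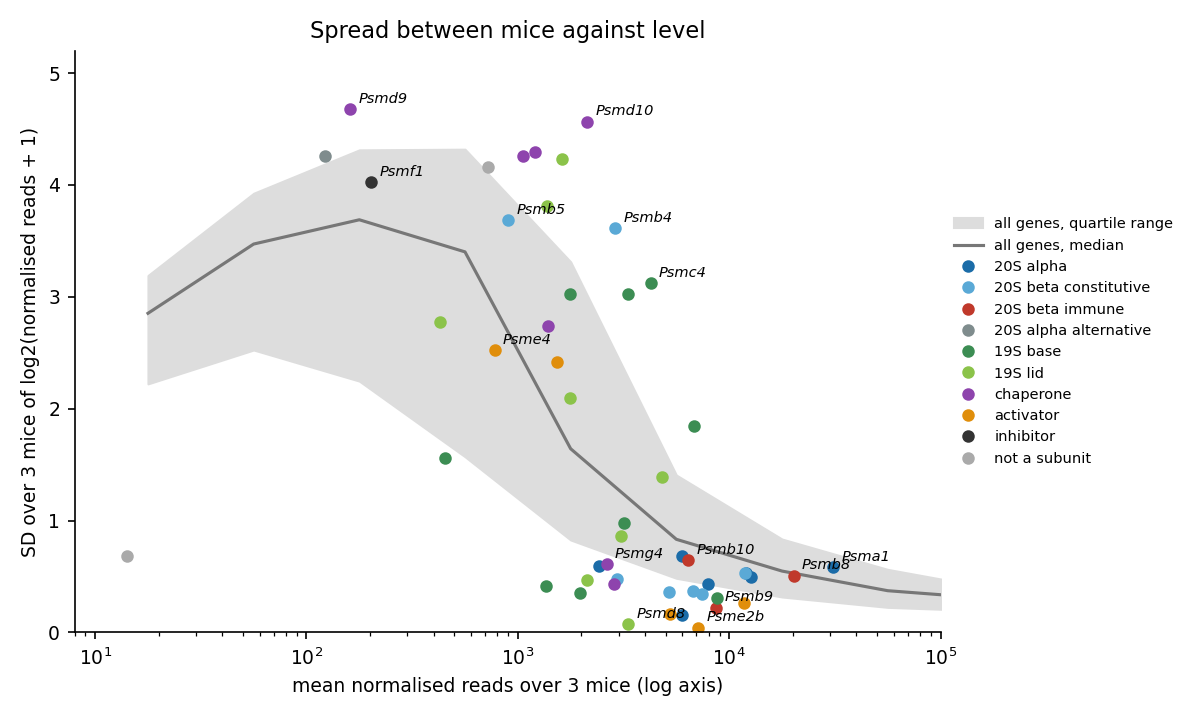
SD over 3 mice of log2(normalised reads + 1) for each of the 50 genes against its mean level on a log axis, with the median and quartile range of all genes in bins of level. Psme2b and Psmd8 lie at 0.04 and 0.07, below the quartile range, whereas Psmb4 (3.61), Psmc4 (3.12) and Psmd10 (4.57) lie above it.

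Against the median gene of the library, 34 of the 50 genes were called higher, beside 24.7% of all 13792 genes. None was called lower in this limma fit, beside 21.7% of all genes, and 1 was lower at an unadjusted p under 0.05. The 34 were all 7 α, all 7 constitutive β and all 3 immune β genes, 7 of 9 base genes, 4 of 8 lid genes, 2 of 7 chaperone genes and 4 of 5 activators. The median difference was 4.8 on the log2 scale per kb over the 50 genes and -0.34 over all genes. Psmb8 lay 7.37 ± 0.65 (SE, limma adjusted p = 1.2e-28) above the median gene and Psmb9 6.08 ± 0.71 (SE, limma adjusted p = 1.69e-16), both in 3 of 3 mice. With a variance that did not follow the level, 28 of the 34 were called, without Psmb4, Psmb5, Psmc1, Psmc3, Psmc4 and Psme3. The share of all genes called higher was then 19.2%. With each gene's own spread alone, 0 were called and 27 were higher at an unadjusted p under 0.05, so these calls rest on the spread shared across genes. Over all 13792 genes, 45 were then called higher and 2706 were higher at an unadjusted p under 0.05.

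Genes that work with the proteasome were described by 4 lists. Of 10 proteasome partners in the table, 6 were called higher than the median gene, beside 24.7% of all genes. With a variance that did not follow the level, 5 were called higher, beside 19.2% of all genes. The highest were Shfm1, which encodes a small 19S subunit, at 4071, 2055 and 2688 normalised reads per kb, and Pomp, which encodes the maturation protein of the core, at 1507, 1379 and 1563. The lowest were Fbxo7, at 20.4, 125 and 237, and the ubiquitin ligase gene Ube3c, at 0.592, 37.0 and 1.92. Of these 10, 8 were called lower than the core mean, near the 89.6% of all genes, and Shfm1 and Pomp were not called.

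Of 7 regulators of proteasome genes, 5 were called higher than the median gene, beside 24.7% of all genes. With a variance that did not follow the level, 4 were called higher, beside 19.2% of all genes. Against the core mean, 4 of the 7 were called lower, beside 89.6% of all genes. Nfe2l2, which encodes the factor NRF2 of the oxidative stress response, was at 8770, 3327 and 4319 normalised reads per kb, and was called higher than the core mean (1.17 on the log2 scale, limma adjusted p = 0.0127). That call was lost without mouse 1 (0.70, limma adjusted p = 0.137), with a variance that did not follow the level (limma adjusted p = 0.174) and without moderation (limma adjusted p = 0.166). Irf1, which encodes an interferon-induced factor, was at 3808, 1232 and 696. Ddi2, which encodes the protease that activates NRF1, was at 599, 92.9 and 92.7. Nfe2l1, the gene of NRF1, which drives proteasome genes when proteasome activity is short, was at 7.56, 26.8 and 18.0 and was the lowest of the list. Nfe2l2, Irf1 and Ddi2 were highest in mouse 1, and Nfe2l1 was lowest there.

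Of 14 ubiquitin and shuttle genes, 7 were called higher than the median gene, beside 24.7% of all genes. With a variance that did not follow the level, 6 were called higher, beside 19.2% of all genes. The polyubiquitin gene Ubb was at 8620, 8082 and 11660 normalised reads per kb, highest in mouse 3, and was called higher than the core mean (2.07 on the log2 scale, limma adjusted p = 5.97e-05). Ubqln4, which encodes a shuttle factor, was the lowest of the list, at 1.17, 5.35 and 0.

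Of 10 genes of peptide trimming and transport, 4 were called higher than the median gene and 2 lower, beside 24.7% and 21.7% of all genes. With a variance that did not follow the level, 2 were called higher, beside 19.2% of all genes. All 10 were called lower than the core mean, as were 89.6% of all genes. Tpp2, which encodes a peptidase acting after the proteasome, was at 2035, 1002 and 331 normalised reads per kb, highest in mouse 1. The aminopeptidase gene Lap3 was at 35.4, 887 and 730, lowest in mouse 1. The peptidase genes Thop1 (0, 9.98 and 0.279) and Npepps (0.112, 2.54 and 6.36) were the lowest. Tap1, which starts beside Psmb9 on the opposite strand, was at 304, 179 and 560 normalised reads per kb, below Psmb9 in every mouse; it was chosen after its values were seen.

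Apart from Psme2b, Psme2 and Psmb5, 6 genes shared over 10% of their 50-base stretches with other genes and are uncertain to that extent: Psma5 (49.1%), Psmd2 (17.8%), Psmb3 (17.8%), Psma3 (15.4%), Psmc1 (14.1%) and Psma4 (11.6%).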

How the data were processed

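RNA of sorted kidney macrophages from 3 PBS-injected mice was measured by RNA-seq, 1 library each, in 1 group. The table deposited by the authors gives a signal per gene, read counts made with HTSeq 0.5.4 on mm9 and divided by size factors of DESeq 1.18.0, per the submitters' processing notes. Aligner, annotation and row filter are not stated there. Every value includes an added 1, which was subtracted; the values are then whole multiples of 1 step per library (100% within 0.05 of a step), so that the floor of 3 reads equals 2.42, 1.66 and 2.11 normalised reads in mice 1, 2 and 3. Since a single group gives no contrast for a count model, levels were compared within libraries. PCR reads carry no molecular identifiers, so counting error alone is covered by read counts. The libraries were not copies of each other: reads of 98.0% of 12562 genes (5 or more expected per library) differed by more than Poisson noise.

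Values were divided by union exon length from GENCODE M21 (99.7% of genes matched by identifier; its build differs from mm9, so exon lengths may differ, and no coordinate of the files was used), and log2 was taken after adding 1. Differences from a reference within the library (the median gene, the mean of the 14 core genes, or 1 gene) were tested with limma 3.58.1 in R 4.3.3 (intercept only, variance trend, two-sided) over 13792 genes above 0, with Benjamini-Hochberg adjustment over all. The prior degrees of freedom were infinite for the median gene, Psmb5 and Psme3, so a gene's own spread hardly enters there, and 150.3, 11.27 and 9.8 for Psmb6, the core and Psmb7. Class summaries, shares and spread have no test. Simulated data were run for the core mean and Psmb7 as references only, and the outcome is not given here. The fits against the other references were not simulated. Alternatives were other pseudocounts (0.1 and 10), filters, lengths and variance models, and leaving out each mouse. Shared 50-base stretches were counted over GENCODE M21 transcripts.

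The genes and lists were chosen with earlier results of these data known. Every gene of the symbol rule could be named; values by mouse are given for the catalytic, activator and inhibitor genes, the highest and lowest of each class and the 3 smallest and largest spreads, and for the highest 2 and lowest 2 of each list of other genes, of which some are not reported here; further genes were chosen after their values were seen. Python 3.11.15, numpy 2.4.6, pandas 2.3.3, scipy 1.17.1 and matplotlib 3.10.9 were used.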

Additional observations from a re-analysis of the deposited data

How the results depend on the processing

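Of 131 recomputed values of the comparisons, 107 kept their direction and side of the threshold or moved little, and of 446 for single genes, 351. The causes of the changes listed here were not tested, except where fewer genes or samples entered. Without division by length, Psmb9 exceeded Psmb6 by 0.24 and Psmb10 exceeded Psmb7 by 0.23, neither called, 2 genes were called above the core, Psmg4 lay at -0.999 against the core, and the immune share was 54.1% at β1 and 53.9% at β2. Per kb of the longest transcript, Psmb9 lay at -1.34 against Psmb6 (called) and at -0.20 against the core, 2 genes were called above the core, and the immune share at β1 was 28.3%. With limma's variance not following the level, Psmb10 against Psmb7 (1.23) was not called. In this setting 1 gene was called above the core and 10 below, beside 1.285% and 77.4% of all genes. Without moderation, a setting added after seeing the data, 0 genes were called above the median gene, 1 above and 3 below the core. Psmb9 against Psmb6 (-0.73) was then called and Psmb10 against Psmb7 (1.23) was not. Over all genes, 45 were called above the median gene, 184 above the core and 3802 below the core. With the median of the core genes as reference, also added later, 4 genes were called above and 21 below, of which 4 and 20 were the same genes. With 10 or more normalised reads required in every library, 10 genes were called below the core, since 11 of the 21 did not enter or were not called. Of the 6546 genes tested under this filter, 4894 were called below the core. With no filter, Psme1 against Psme3 (4.21) was called. With means over genes, core exceeded 19S by 2.38.

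Leaving out 1 mouse at a time gave 0 to 1 genes below the median gene, 11 to 19 below the core, 2.96 to 5.12 for Psme1 against Psme3, 2.09 to 4.18 for Psme2 against Psme3, and, against the core, -0.0921 to 0.17 for Psmb9, -0.10 to 0.33 for Psmc6 and -1.10 to 0.41 for Psmd7. With 1 mouse left out, 8525 to 10887 of all 13778 genes were called below the core. No paired analysis was possible because there is 1 group. Levels from 3 reads or fewer (Psmd9, Psma8, Psmf1) cannot be told from 0 at this depth, and gene lengths set the order of genes of similar level.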
